A study of Mus musculus with 6 samples.

Results

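The kinases described here are 8 genes of the SRC and TEC families and their main negative regulator: Lyn, Fgr, Fyn, Src and Yes1 (SRC family), Btk and Tec (TEC family) and Csk. They were chosen by name, as the rows of the deposited expression table that carry these symbols, and each had 1 row among the 49585 rows of the table. All 8 passed the filter on low values and belong to the 14023 features tested. RNA-seq of bone marrow monocytes from mice on a high-fat diet compared 3 Sykdel/del libraries with 3 Syk+/+ libraries, and the study asked which transcripts depend on SYK, the spleen tyrosine kinase. Both genotypes carried Rosa26CreER(T2)+/+, a Cre recombinase activated by tamoxifen in all tissues, so that Syk was lost from the whole body and not from monocytes alone. The labels give 8 weeks of diet for both groups. The methods give tamoxifen on 3 consecutive days at an age of 7 to 8 weeks for the deletion, and do not say whether Syk+/+ mice received it. The methods also describe an isolation kit for marrow monocytes. The labels do not say whether replicates were separate mice, so the spread between libraries may be partly technical.

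SRC family kinases sit at the inner face of the plasma membrane and phosphorylate the ITAM motifs of Fc receptors, C-type lectins and integrin-coupled adaptors, to which SYK then binds. TEC family kinases are recruited to phosphoinositides after that step and, with SYK, activate phospholipase C gamma. CSK keeps SRC family kinases inactive by phosphorylating the tail tyrosine of each, and Lyn and Fgr are among the members known best from monocytes, macrophages and neutrophils.

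Of the 8 kinases, only Fyn passed the test between the genotypes. Its transcript was 43.1% lower in Sykdel/del monocytes, while the adjusted p-values of the other 7 were 0.761 or higher. The SRC family transcripts that dominate these cells, Lyn and Fgr, were lower in every Sykdel/del library than in any Syk+/+ library, by small steps that did not pass the test. Btk and Tec had slightly higher means in Sykdel/del monocytes, with overlapping libraries, and the ratio of Csk to the SRC family sum was nearly the same in both genotypes.

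The values are normalised read counts, read counts scaled to a like total in every library. The libraries held 4168626 to 6254375 reads assigned to genes in Sykdel/del and 6805111 to 7071823 in Syk+/+, and 1 read was worth 1.04 to 1.56 normalised counts in Sykdel/del and 0.923 to 0.960 in Syk+/+. Syk itself averaged 4867 ± 201 normalised counts in Sykdel/del and 5139 ± 587 in Syk+/+ (SD, n = 3 each, log2 fold change -0.07), which does not check the labels, because a gene-level count includes reads from the exons that the deletion leaves. Markers of classical monocytes summed to 1.47e+05 to 1.70e+05 in Sykdel/del and 1.25e+05 to 1.41e+05 in Syk+/+, so that the labelled cell type was present in every library. The B cell gene Ms4a1 was listed at 0 in all 6 libraries. By limma with Benjamini-Hochberg adjustment over all features tested, 0.349% of the 14023 features were lower in Sykdel/del at an adjusted p under 0.05 and 0.0214% were higher.

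The upstream sequences of 4 of the kinases are shown here because they set the called gene, Fyn, beside the SRC family member with the next smallest p (Fgr), the inhibitor (Csk, at the second of its annotated starts) and a kinase whose mean was higher (Btk). Each runs 5′ to 3′ along the gene, from 250 to 41 bases before the RefSeq start on GRCm38.p6, at chr10:39369549-39369758 on the plus strand for Fyn, chr4:132973845-132974054 on the plus strand for Fgr, chr9:57645694-57645903 on the minus strand for Csk and chrX:134583181-134583390 on the minus strand for Btk. None of the 4 windows overlaps an annotated exon. In the GENCODE M21 annotation, the windows of Fyn, Csk and Btk lie inside the gene, downstream of its outermost start. Only the window of Fgr lies before that start. Capitals mark a GC box (GGGCGG on either strand) or a PU.1-like motif (GAGGAA on either strand).
Fyn: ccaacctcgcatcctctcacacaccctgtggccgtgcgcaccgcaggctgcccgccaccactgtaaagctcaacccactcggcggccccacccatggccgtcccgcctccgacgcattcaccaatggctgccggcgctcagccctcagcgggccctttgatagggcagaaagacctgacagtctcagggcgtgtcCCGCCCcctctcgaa
Fgr: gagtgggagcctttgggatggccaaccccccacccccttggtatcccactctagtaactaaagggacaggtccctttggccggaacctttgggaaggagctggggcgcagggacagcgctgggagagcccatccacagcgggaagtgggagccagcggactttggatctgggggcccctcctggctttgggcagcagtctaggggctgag
Csk: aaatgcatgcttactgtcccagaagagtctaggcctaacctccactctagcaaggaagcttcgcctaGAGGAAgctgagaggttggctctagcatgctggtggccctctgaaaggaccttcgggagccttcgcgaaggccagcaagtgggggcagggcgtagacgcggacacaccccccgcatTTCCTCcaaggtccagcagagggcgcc
Btk: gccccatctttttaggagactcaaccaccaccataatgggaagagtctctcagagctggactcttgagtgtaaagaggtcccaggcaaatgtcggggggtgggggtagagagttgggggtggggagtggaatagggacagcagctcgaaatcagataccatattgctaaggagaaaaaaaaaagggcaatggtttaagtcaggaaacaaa

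An entry in the RefSeq promoter table was matched for 7 of the 8 kinases, and the whole 250 bases before each start were searched on both strands for 5 motifs. The window of Fyn held 1 GC box, 55 bases before the start, and had a GC content of 67.2%, against 64.4% for Fgr and 49.6% for Btk. The GC box was found in the windows of 4 of the 7 kinases (1 each in Fyn and Src, 2 each in Yes1 and Tec), not in those of Fgr, Btk and Csk, and in 32.7% of 32851 promoter windows of the same length. The PU.1-like motif, named after a master regulator of myeloid genes, was found in the windows of Csk and Src and in 23.3% of all windows. In Csk it matched at 2 places in the window shown above and at 1 in the window of its other start. The FOXO-like motif TGTTTAC, in 3.17% of all windows, the NR4A1-like motif AAAGGTCA, in 1.34%, and the TATA box TATAAA, in 12.4%, were found in none of the 7 kinases. None of the 5 motifs contains another, and a match is a description of the sequence and not a binding site.

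Lyn, a SRC family kinase that acts both in activating and in ITIM-dependent inhibitory signalling of myeloid cells, had the highest level of the 8. Its normalised counts were 4179, 4189 and 4059 in Sykdel/del and 4409, 4606 and 4221 in Syk+/+. The groups did not overlap, but the highest Sykdel/del library and the lowest Syk+/+ library were close to each other. The log2 fold change was -0.09 (SE 0.088, 95% interval -0.28 to 0.10, adjusted p = 1.00 by limma), a fold of 0.939 with an interval of 0.824 to 1.07. Lyn lies on chromosome 4 (3678115 to 3813122, plus strand, GRCm38), and 248 of its exon bases are shared with an antisense transcript, Gm26857, whose reads can be told apart only if the counting used strand, which is not given in the sources used here.

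Fgr, a SRC family kinase restricted largely to myeloid cells, had 1876, 2051 and 2049 normalised counts in Sykdel/del and 2157, 2659 and 2313 in Syk+/+. All 3 Sykdel/del libraries were below the lowest Syk+/+ library. The log2 fold change was -0.25 (SE 0.097, 95% interval -0.46 to -0.04), a fold of 0.841 or 15.9% lower. It did not pass the test (adjusted p = 0.761 by limma). Fyn and Fgr were the 2 kinases lower at an unadjusted p under 0.05, and 0 of the 8 were higher, where 3.32% of all features were lower and 1.94% higher at that level.

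Fyn, the broadly expressed SRC family kinase known from T cell receptor and integrin signalling, had 176, 183 and 195 normalised counts in Sykdel/del. The 3 Syk+/+ libraries had 276, 406 and 305. The groups were well apart, the Sykdel/del libraries lay close together, and replicate 2 of Syk+/+ stood above the other libraries of its genotype. In reads, these were 159, 175 and 125 in Sykdel/del and 295, 423 and 331 in Syk+/+, so the counts behind the difference are moderate. The log2 fold change was -0.81 (SE 0.139, 95% interval -1.11 to -0.51, adjusted p = 0.0227 by limma), a fold of 0.569 with an interval of 0.462 to 0.702. By p-value Fyn was number 36 of the 14023 features. It was the 1 kinase of the 8 called lower, where 0.349% of all features were, and none was called higher. Fyn lies on chromosome 10 (39368855 to 39565381, plus strand, GRCm38), and its exons share no base with those of another annotated gene.

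**Figure D1:**
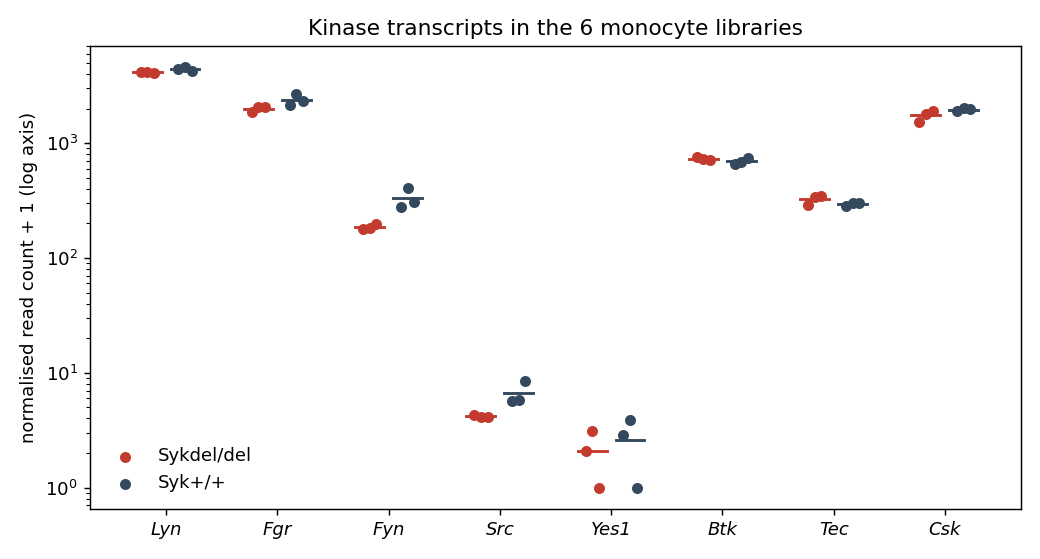
Normalised read count plus 1 (log axis) of the 8 kinases in each library, with Sykdel/del in red and Syk+/+ in dark blue; points are libraries and bars are means of 3. Fyn lies at 176 to 195 in Sykdel/del and 276 to 406 in Syk+/+, while Src and Yes1 lie below 10 in all libraries.

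The call on Fyn depended on single libraries, and its direction did not. Leaving out 1 library at a time gave log2 fold changes of -0.93 to -0.65, but the adjusted p by limma passed the threshold only without replicate 1 of Sykdel/del (0.0320). It was 0.121 without replicate 2 and 0.0542 without replicate 3 of Sykdel/del, and 0.0565 without replicate 1, 0.134 without replicate 2 and 0.0699 without replicate 3 of Syk+/+. Fitting limma without a trend of the variance on the mean gave the same fold change with an adjusted p of 0.454. Thinning all libraries to the depth of the shallowest gave -0.83 with an adjusted p of 0.158 over the features that pass the filter, and 0.0185 when features with a mean under 5 normalised counts were also left out, a setting chosen after seeing the data.

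**Figure D2:**
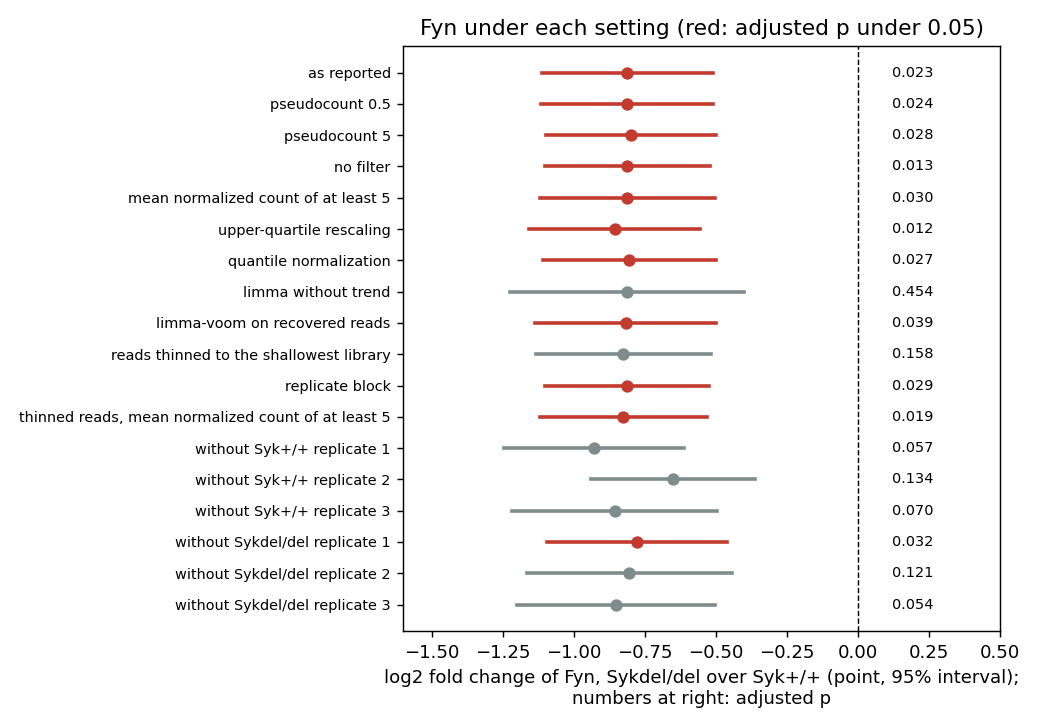
Log2 fold change of Fyn, Sykdel/del over Syk+/+, with its 95% interval, as reported and under each other setting; red marks an adjusted p under 0.05 and the numbers at the right are the adjusted p-values. All points lie between -0.93 and -0.65 and no interval reaches 0, while the adjusted p ranges from 0.0115 to 0.454.

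Fyn moved with the markers of non-classical monocytes, the patrolling subset. All 13 of these markers had a log2 fold change below 0 (median -1.07), 7 were called lower and none higher, and none was at 0. Their summed normalised counts were 12428, 13807 and 15111 in Sykdel/del and 18460, 25147 and 18747 in Syk+/+. The 6 libraries stood in the same order by Fyn as by this sum, with replicate 2 of Syk+/+ highest in both. Expressed as a percentage of the sum, Fyn was 1.42, 1.32 and 1.29 in Sykdel/del and 1.49, 1.62 and 1.63 in Syk+/+, a mean of 1.34% ± 0.066 against 1.58% ± 0.074 (SD, n = 3 each), and the genotypes did not overlap in this percentage either. Itgal and Spn, the markers with the highest means in both genotypes, weigh most in this sum. Their log2 fold changes were only -0.46 and -0.18. Each of the 7 called markers fell by more than Fyn (-0.81), from -1.07 for Adgre4 to -2.17 for Cd300e, and the other 6 fell by less. The percentage therefore depends on which markers dominate the sum. The part of the non-classical subset in the change of Fyn was not tested, and in bulk RNA fewer cells of a type and less RNA per cell cannot be told apart.

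**Figure D3:**
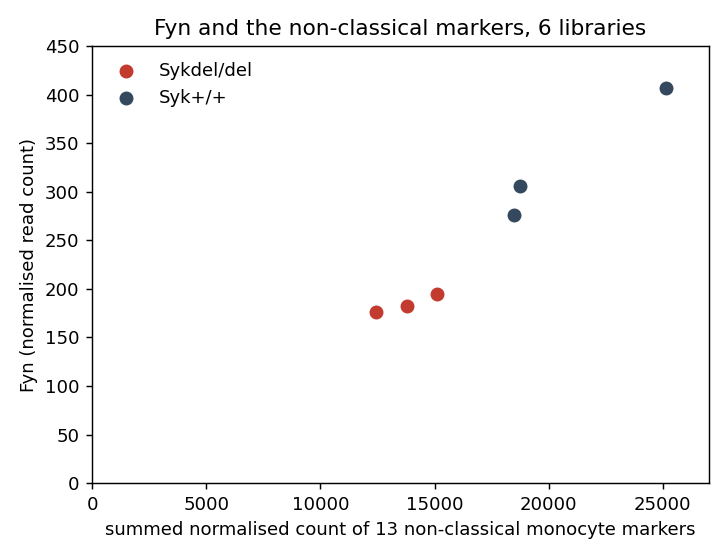
Fyn (normalised read count) against the summed normalised count of 13 non-classical monocyte markers, 1 point per library, Sykdel/del in red and Syk+/+ in dark blue. The Sykdel/del libraries lie at sums of 12428 to 15111 and the Syk+/+ libraries at 18460 to 25147, and Fyn follows the same order.

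Markers of other cell types also differed between the genotypes, in both directions. Those of plasma cells summed to 524.3 to 694.5 in Sykdel/del and 273.1 to 441.4 in Syk+/+ over 6 genes, none of them called. All 8 markers of classical monocytes were above 0 (median 0.19), none of them called. The 6 erythroid and the 6 stromal and endothelial markers were all below 0 (medians -0.77 and -0.61), none of them called. The 10 markers of resident marrow macrophages were all below 0 (median -1.15), with 2 called lower, and summed to 728 to 969 in Sykdel/del and 1124 to 1400 in Syk+/+. Markers of T and NK cells, in which Fyn is abundant, summed to 21.8 to 23.2 in Sykdel/del and 29.5 to 40.3 in Syk+/+ over 10 genes, none of them called, with Ncr1 and Gzma at 0 in every library. Lck, the SRC family kinase of T cells, had at most 1.6 normalised counts in Sykdel/del and 0.9 in Syk+/+, that is 2 reads over the 3 libraries of each genotype. The part of these cells in the change of Fyn was not tested.

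The genes whose pattern over the 6 libraries was most like that of Fyn were sought among 7443 tested features with a mean of at least 100 normalised counts, as a description, since the genotype difference enters each coefficient. They were Pik3ap1 (Pearson r = 0.996), Rgs3 (0.990), Grk3 (0.983), Dusp16 (0.983) and Tcf7l2 (0.982). Of these 5, Pik3ap1, which encodes the PI3-kinase adaptor BCAP, Dusp16, a phosphatase of JNK, and Tcf7l2, a transcription factor of the WNT pathway, were called lower in Sykdel/del by limma, with log2 fold changes of -0.94 (adjusted p = 0.0106), -1.89 (0.00754) and -1.76 (0.00877). Rgs3 and Grk3, which dampen signalling from G protein-coupled receptors, had log2 fold changes of -0.21 and -0.55 and were not called (adjusted p = 0.897 and 0.0633 by limma).

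Src and Yes1, the ubiquitous members of the family, were near the detection limit. Src had 3.3, 3.1 and 3.1 normalised counts in Sykdel/del and 4.7, 4.8 and 7.4 in Syk+/+, which rest on 8 reads in all Sykdel/del libraries together and 18 in all Syk+/+ libraries. The ratio of the read rates was 0.568, with an exact 95% interval of 0.214 to 1.37 that covers counting error only, so that no difference was detectable at this depth. Yes1 had 1.1, 2.1 and 0 normalised counts in Sykdel/del and 1.9, 2.9 and 0 in Syk+/+, from 3 and 5 reads. With so few reads no direction is read from the fitted value of Yes1, whose exons also share 635 bases with Gm10461 on the other strand.

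Among the TEC family kinases, Btk, which acts downstream of Fc receptors in myeloid cells and of the antigen receptor in B cells, had 760.4, 725 and 705 normalised counts in Sykdel/del and 658, 688 and 747 in Syk+/+. The groups overlapped, and the log2 fold change was 0.07 (SE 0.089, 95% interval -0.12 to 0.26, adjusted p = 1.00 by limma). It ranged between 0.03 without replicate 1 and 0.12 without replicate 3 of Syk+/+. Tec, the founding member of its family, had 288, 337 and 343 normalised counts in Sykdel/del and 284, 299 and 298 in Syk+/+. Replicate 1 of Sykdel/del lay among the Syk+/+ libraries and the other 2 lay above them. The log2 fold change of Tec was 0.13 (SE 0.106, 95% interval -0.10 to 0.36, adjusted p = 1.00 by limma), and it was 0.21 without replicate 1 and 0.09 without replicate 3 of Sykdel/del. Bmx, the third TEC family kinase with substantial counts and not among the 8 chosen, averaged 179 ± 7.4 in Sykdel/del and 167 ± 27.3 in Syk+/+ (SD, n = 3 each).

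Csk had 1537, 1789 and 1906 normalised counts in Sykdel/del and 1889, 2025 and 1968 in Syk+/+. The groups overlapped through replicate 3 of Sykdel/del, and replicate 1 of Sykdel/del was the lowest of all. The log2 fold change was -0.17 (SE 0.095, 95% interval -0.38 to 0.03, adjusted p = 1.00 by limma). It was -0.09 without replicate 1 and -0.24 without replicate 3 of Sykdel/del. Across the 8 kinases, 6 log2 fold changes were below 0, that of Yes1 among them, where 49.7% of all features were, and their median was -0.21, where that of all features tested was 0.00. Groups did not overlap in 4 kinases that were lower (Lyn, Fgr, Fyn and Src) and in 0 that were higher, where 5.19% of all features were lower and 4.94% higher without overlap. Src enters both counts and the median, and Yes1 the first count and the median, although both were near the detection limit.

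**Figure D4:**
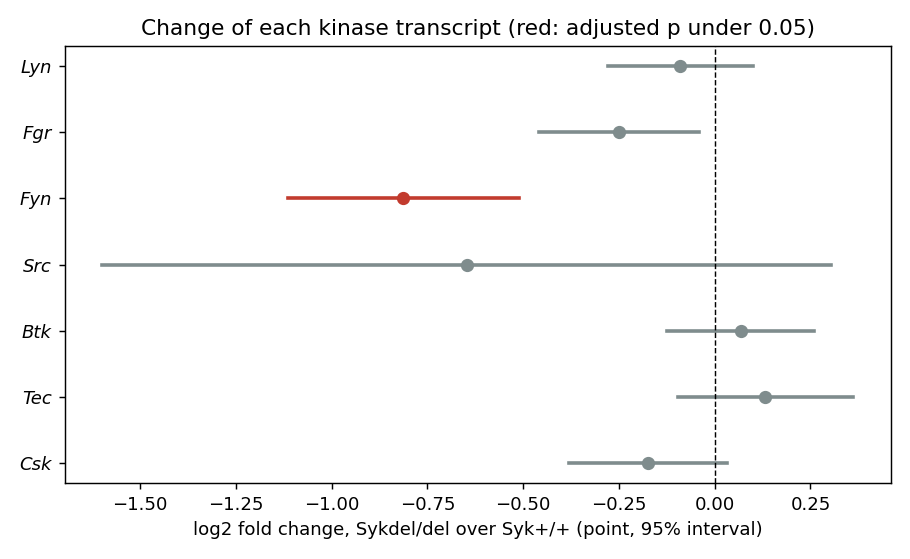
Log2 fold change of each kinase but Yes1, Sykdel/del over Syk+/+ (x axis), with its 95% interval; red marks an adjusted p under 0.05. Fyn is at -0.81 with an interval of -1.11 to -0.51, and the wide interval of Src goes with its few reads.

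Divided by exon length, the order of the levels was Lyn, Fgr, Csk, Btk, Tec, Fyn, Src and Yes1. Lyn averaged 1017 ± 17.7 normalised counts per kilobase in Sykdel/del and 1083 ± 47.3 in Syk+/+, Fgr 516 ± 26.1 and 615 ± 66.4, Csk 467 ± 50.4 and 525 ± 18.3, and Btk 232 ± 8.8 and 221 ± 14.3, each with Sykdel/del before Syk+/+ (SD, n = 3 each). Tec averaged 86.2 ± 8.1 in Sykdel/del and 78.4 ± 2.2 in Syk+/+ on the same scale, and Fyn 42.3 ± 2.2 in Sykdel/del and 75.4 ± 15.7 in Syk+/+. The ranges over all 6 libraries overlapped between Fgr and Csk, although Fgr was higher within each of the 6 libraries, and between Tec and Fyn, where Tec was higher in 5 of 6.

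The balance among the kinases within a library was compared by exact permutation tests over the 3 against 3 libraries, two-sided, whose smallest possible p is 0.1, so that none could pass 0.05. The summed level of Lyn, Fgr, Fyn, Src and Yes1 was 1553, 1602 and 1573 normalised counts per kilobase in Sykdel/del and 1706, 1914 and 1707 in Syk+/+, without overlap, and its mean was 11.2% lower in Sykdel/del (exact permutation p = 0.1). Lyn held 66.1, 64.2 and 63.4% of that sum in Sykdel/del and 63.5, 59.1 and 60.7% in Syk+/+, with overlapping groups (exact permutation p = 0.2). The log2 ratio of Csk to the sum was -1.92, -1.74 and -1.62 in Sykdel/del and -1.75, -1.82 and -1.70 in Syk+/+, and the group means were the same to 2 decimals at -1.76 (exact permutation p = 1). The log2 ratio of Btk to Tec averaged 1.43 ± 0.19 in Sykdel/del and 1.50 ± 0.068 in Syk+/+ (SD, n = 3 each, exact permutation p = 0.6).

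Fyn held a smaller share of the family sum in every Sykdel/del library than in any Syk+/+ library, a comparison added after its values were seen. It held 2.60, 2.61 and 2.84% of the SRC family sum in Sykdel/del and 3.71, 4.86 and 4.10% in Syk+/+ (exact permutation p = 0.1). The log2 ratio of Fyn to Lyn, which does not depend on the scaling of a library, averaged -4.59 ± 0.098 in Sykdel/del and -3.86 ± 0.25 in Syk+/+ (SD, n = 3 each), a difference of -0.73 with no overlap (exact permutation p = 0.1).

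**Figure D5:**
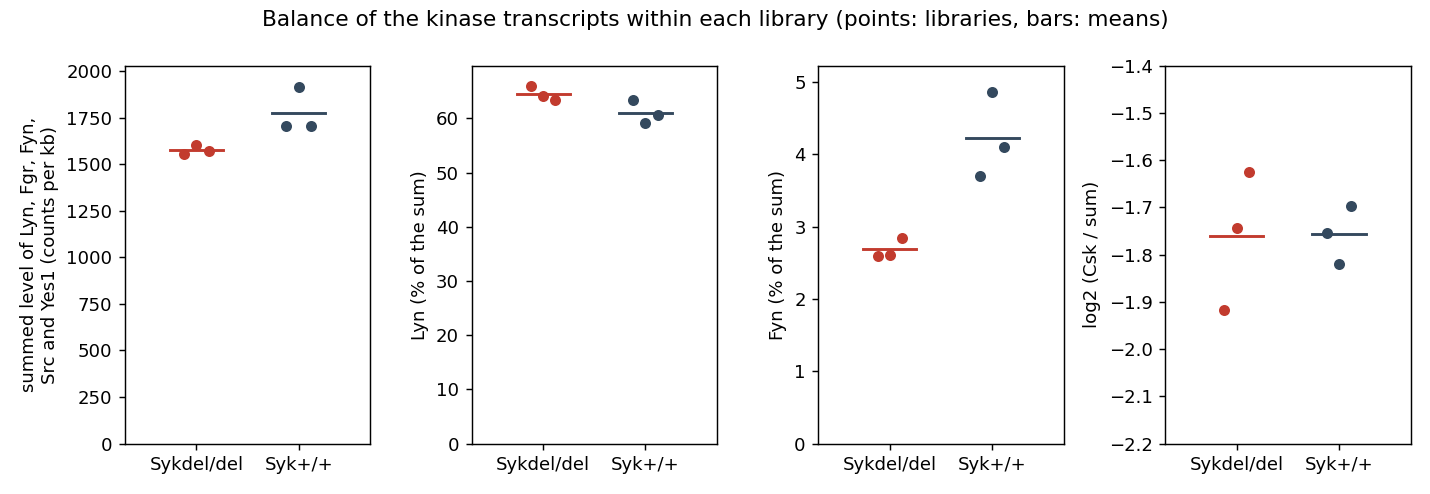
From left to right, the summed level of the 5 SRC family kinases (normalised counts per kilobase), the percentage of it held by Lyn, the percentage held by Fyn and the log2 ratio of Csk to the sum; points are libraries, bars are means, and Sykdel/del stands left of Syk+/+. The Fyn percentages lie at 2.60 to 2.84 in Sykdel/del and 3.71 to 4.86 in Syk+/+, while the Csk ratios overlap.

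The neighbours of these kinases in the pathway were read from lists. Of 10 further kinases of the SRC, TEC, CSK and BRK families, 6 had enough counts to be tested and none was called in either direction. Of 10 other cytoplasmic tyrosine kinases, none was called, and Jak3, with the smallest p, had a change of -0.32 on the log2 scale (limma, adjusted p = 0.928).

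Of 18 tested phosphatases, adaptors and ubiquitin ligases that act on SRC family kinases, none was called in either direction, and the median log2 fold change was -0.07. Cav1 was listed at 0 in all libraries. Cblb, a ubiquitin ligase that targets activated tyrosine kinases, had the smallest p of the list. It had 628, 504 and 646 normalised counts in Sykdel/del and 869, 941 and 729 in Syk+/+, and its log2 fold change was -0.51 (SE 0.12, adjusted p = 0.128 by limma). The libraries did not overlap, but the gene did not pass the test.

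Of 24 tested rows for ITAM and ITIM receptors, their signalling chains and leukocyte integrins, 1 was called lower and none higher (median -0.07). The called gene was Fcgr4, an activating Fc receptor for IgG that is also 1 of the 13 non-classical markers. Fcgr4 had 66.5, 79.3 and 117 normalised counts in Sykdel/del and 222, 431 and 207 in Syk+/+, with a log2 fold change of -1.66 (SE 0.26, adjusted p = 0.0133 by limma). The call was lost without replicate 2 of Sykdel/del (0.0751), without replicate 1 of Syk+/+ (0.0793) and without replicate 2 of Syk+/+ (0.0537).

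Of 32 tested substrates and effectors of these kinases, 1 was called lower and none higher (median -0.08). This was Pik3ap1, which had 392, 394 and 457 normalised counts in Sykdel/del and 688, 1028 and 708 in Syk+/+, with a log2 fold change of -0.94 (SE 0.139, adjusted p = 0.0106 by limma). The same 3 omissions that ended the call on Fcgr4 ended it for Pik3ap1, with adjusted p-values by limma of 0.0691 without replicate 2 of Sykdel/del, 0.0555 without replicate 1 of Syk+/+ and 0.0537 without replicate 2 of Syk+/+. Like Fyn, both genes were highest in replicate 2 of Syk+/+, the library with the highest sum of non-classical markers. The part of the non-classical subset in the changes of Fcgr4 and Pik3ap1 was not tested.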

How the data were processed

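RNA of bone marrow monocytes from 3 Sykdel/del and 3 Syk+/+ samples was sequenced by the authors from rRNA-depleted, directional libraries and mapped to mm10, per the submitters' processing notes. The authors deposited 1 table of log2 values, log2(x + 1), and x proved to be read counts brought to a like total in each library: although the methods name TPM, 1 step per library turned 100% of values into whole reads within 0.1 of a read. A deposited p-value for each gene, from a comparison by the authors, was not used. The sources used here do not give the counter's version, annotation or strand setting.

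Here limma 3.58.1 under R 4.3.3, with its mean-variance trend, took log2(x + 1) of all 6 libraries, a pseudocount of 1, as input, over the 14023 features whose normalised count reached 1 in 3 or more libraries, with Benjamini-Hochberg adjustment and a threshold of 0.05. Fold changes on this scale understate the change of low genes. Single values per library were compared by exact permutation. Levels per kilobase used exon lengths of GENCODE M21. The script for the fit was tested on simulated data. The kinases and gene lists were chosen with earlier results of these data known. Named genes are the 8 kinases, Syk, the called genes and the smallest p of each pathway list, and the 5 genes most like the kinase with the smallest p. Bmx, Lck, Cav1, overlapping transcripts and single cell type markers, those at 0 among them, were named in addition, after their values were seen. Some results are not reported here. Other pseudocounts, filters, scalings, models and omissions of each library were tried.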

Additional observations from a re-analysis of the deposited data

How the results depend on the processing

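Of 17 alternative settings, 10 kept the 1 call among the 8 kinases. It was 0 with limma without a trend and with reads thinned to the shallowest library, and 0 to 1 when 1 library was left out. The log2 fold change of Fyn was -0.81 without a trend (adjusted p = 0.454), -0.83 on thinned reads (0.158) and -0.93 to -0.65 with 1 library left out. The counts of called receptors and of called substrates were also 0 each without a trend and 0 each on thinned reads, and substrates had 2 calls on thinned reads with a mean of at least 5. With 1 library left out they were 0 to 1 and 0 to 2. Over all features, 52 were called as reported, 6 without a trend, 34 by limma-voom on the recovered reads, 0 on thinned reads, and 4 to 75 with 1 library left out. The cause was not tested. Yes1 changed direction with limma-voom (0.050), without replicate 3 of Sykdel/del (0.18) and without replicate 2 of Syk+/+ (0.13), its range with 1 library left out was -0.85 to 0.18, and Src and Yes1 gave no value with the filter on a mean of 5. The other 7 kinases kept their direction under every alternative that gave a value.

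The labels do not say whether the replicate numbers pair the libraries. Deviations from the group means correlated by 0.04, 0.04 and -0.02 between same-numbered libraries, and by -0.11 to 0.08 between the others. No sign of pairing was seen, but with 3 libraries per genotype these values cannot settle whether the design was paired. With a replicate block, Fyn stayed at -0.81 (adjusted p = 0.0291) and 53 features were called. The SRC family sum was 7.64% to 12.95% lower in Sykdel/del under its alternatives, the share held by Lyn 2.45 to 4.64 percentage points higher, the share held by Fyn 1.00 to 1.80 percentage points lower, and the log2 ratio of Fyn to Lyn differed by -0.84 to -0.60. These values moved by less than the larger of the SDs of the 2 genotypes, but the ratio of Csk to the SRC family sum, at -0.07 to 0.07 with 1 library left out, and that of Btk to Tec, at -0.17 to 0.01, had no fixed direction. Depth limits what can be said of Src and Yes1, which rest on at most 8 reads in a library.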
